A study of Mus musculus with 6 samples.

Results

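The genes described here encode the factors that start protein synthesis. They were taken by symbol, as every gene of the deposited table whose name begins with Eif followed by a digit from 1 to 6, with names marked as pseudogenes left out. This gave 55 of the 22377 genes in the table. The rule used names and no measured value, but it was set with earlier results of these data known. RNA sequencing compared 3 libraries labelled wt with 3 labelled knockdown. The cells were macrophages positive for CD45, CD11b and F4/80, sorted from subcutaneous LLC tumors (Lewis lung carcinoma, a mouse lung cancer line) of Npm1+/+ (wt) and Npm1+/- (knockdown) mice. Mice of both sexes, 6 to 8 weeks old, were used for the tumors in general, and the sex behind each library is not labelled. That is the account of the methods, whereas the labels give whole tumor tissue as the source, TRIzol extraction and a small RNA library, and the disagreement was not resolved here. The Npm1+/- mice lack 1 copy of Npm1 in every cell. A legend gives 2 individual mice for this sequencing, without saying whether per group, against 3 libraries per group. Libraries of a group may therefore share an animal, in which case n = 3 below counts libraries and the p-values are too small. The comparison asks which transcripts of tumor-associated macrophages (TAMs) differ when Npm1, the gene of the nucleolar protein nucleophosmin, is reduced.

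Initiation begins when eIF2, loaded with GTP, brings the initiator tRNA to the small ribosomal subunit together with eIF1, eIF1A, eIF3 and eIF5. The eIF4F complex, made of the cap-binding protein eIF4E, the scaffold eIF4G and the helicase eIF4A, recruits the mRNA, and the loaded subunit scans to the start codon. eIF5 then stimulates GTP hydrolysis by eIF2, eIF5B joins the large subunit, and eIF2B reloads eIF2 with GTP. In macrophages, as in other cells, the kinases of eIF2 and the eIF4E-binding proteins are the main brakes on this process, under stress and under low mTORC1 activity respectively.

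The libraries held 36550775 to 38147320 counted reads. Values are CPM, counts relative to library size, scaled by TMM between libraries, and 3 counts in a library, taken as its floor, equalled 0.0716 to 0.0846 CPM. Npm1 itself read 142, 380.2 and 381 CPM in the wt libraries and 441, 499 and 343 CPM in the libraries labelled knockdown, so its level did not bear out the label, with a log2 fold change of 0.51 (SE 0.36, adjusted p = 0.436 by edgeR's quasi-likelihood test). The group is therefore called the libraries labelled knockdown. wt replicate 1 stood apart from the other 5 libraries, at -108 on the first principal component against -4.54 to 52.0 for the rest, and that component held 68.0% of the variance. The 12 macrophage markers were present in every library, with a summed level of 15564 to 21269 CPM in wt and 9086 to 15526 CPM in the libraries labelled knockdown, and 8 of the 12 were lower in every library labelled knockdown. Summed fibroblast markers were 32.6 to 491 CPM in wt, lowest in wt replicate 1, and 368 to 714 CPM in the libraries labelled knockdown. Most of this sum was Col3a1, at 19.0, 426 and 245 CPM in wt and 604, 474 and 308 CPM in the libraries labelled knockdown. For the other cell types, the summed levels in wt and in the libraries labelled knockdown were 1624 to 1841 and 693 to 1426 CPM for neutrophil markers, 35.2 to 123 and 96.5 to 275 CPM for T and NK cell markers, 36.1 to 138 and 129 to 192 CPM for epithelial markers, 6.26 to 36.1 and 11.8 to 58.0 CPM for B cell markers, 214 to 367 and 239 to 339 CPM for dendritic cell markers, and 32.7 to 40.1 and 30.1 to 34.0 CPM for endothelial markers. Log2 fold changes were below 0 for 12 of 12 macrophage and 8 of 8 tested neutrophil markers and above 0 for 9 of 9 tested fibroblast and 10 of 10 tested T and NK cell markers. Tested epithelial markers were divided, with 2 above and 2 below 0. Most of their sum was Krt8, at 9.90, 117 and 59.1 CPM in wt and 171, 165 and 105 CPM in the libraries labelled knockdown. B cell, dendritic cell and endothelial markers were also divided. Of the defining markers, Krt19 and Cldn4 had at most 1 count in any library, and Fbln1 had 0 in every wt library. The part of these cell mixtures and of wt replicate 1 in the values below was not tested, and fewer cells of a type cannot be told apart from less RNA per cell.

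The start regions of 4 members are shown first, because they belong to genes whose values recur below: Eif5 and Eif1b, whose values lay in opposite directions, and Eif4e and Eif4g1, whose products join in the cap complex. Each is the stretch from 250 bases before to 50 bases after an annotated start in RefSeq, build GRCm38.p6, on the plus strand. The windows are chr12:111537851-111538150 for Eif5, chr9:120492356-120492655 for Eif1b, chr3:138527018-138527317 for Eif4e (1 of 2 listed starts) and chr16:20672477-20672776 for Eif4g1. Capitals mark CACGTG, the E-box bound by MYC and related factors, and CCAAT, the box bound by NF-Y.
Eif5: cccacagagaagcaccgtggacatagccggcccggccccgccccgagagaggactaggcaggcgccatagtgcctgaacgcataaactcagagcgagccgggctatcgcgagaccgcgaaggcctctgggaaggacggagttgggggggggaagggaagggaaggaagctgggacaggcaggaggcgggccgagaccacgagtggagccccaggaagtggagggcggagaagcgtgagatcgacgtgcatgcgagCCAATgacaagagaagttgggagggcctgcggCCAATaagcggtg
Eif1b: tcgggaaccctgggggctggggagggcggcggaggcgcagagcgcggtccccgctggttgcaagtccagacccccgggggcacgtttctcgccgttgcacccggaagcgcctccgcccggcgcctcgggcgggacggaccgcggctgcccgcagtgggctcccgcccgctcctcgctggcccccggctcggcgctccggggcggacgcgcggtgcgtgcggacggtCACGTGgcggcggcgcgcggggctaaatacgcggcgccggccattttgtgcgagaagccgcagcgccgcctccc
Eif4e: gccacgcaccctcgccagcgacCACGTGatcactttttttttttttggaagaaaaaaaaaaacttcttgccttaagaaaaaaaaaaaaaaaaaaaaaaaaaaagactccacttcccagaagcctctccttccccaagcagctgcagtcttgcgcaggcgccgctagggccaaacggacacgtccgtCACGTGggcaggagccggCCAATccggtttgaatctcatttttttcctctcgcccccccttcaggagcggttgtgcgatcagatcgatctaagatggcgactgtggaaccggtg
Eif4g1: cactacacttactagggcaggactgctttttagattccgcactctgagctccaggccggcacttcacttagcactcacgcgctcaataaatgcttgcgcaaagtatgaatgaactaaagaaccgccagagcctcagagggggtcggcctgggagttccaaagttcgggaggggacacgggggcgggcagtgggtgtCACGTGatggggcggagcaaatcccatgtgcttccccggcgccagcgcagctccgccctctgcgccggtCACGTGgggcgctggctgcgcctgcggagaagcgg
In these windows Eif5 held CCAAT beginning 5 and 37 bases after the start and no E-box, and Eif1b held an E-box beginning 24 bases before it. Eif4e held E-boxes at -228 and -64 and CCAAT at -46, and Eif4g1 held E-boxes at -54 and 15. RefSeq windows matched 43 of the 55 members, and searches of both strands found CACGTG in 10 of them (23.3%) against 7.15% of all 32851 windows and 8.09% of all 27025 genes with a window. CGGAAGT, a core of ETS factor sites, was in 12 members (27.9%) against 6.42% of windows and 7.2% of genes, and CCAAT was in 15 members (34.9%) against 37.4% and 41.1%. None of these motifs overlaps another by its letters in the shown windows. The 10 members with CACGTG had a median log2 fold change of -0.041 and the 33 without it 0.066, and a match of letters is not evidence of binding.

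Of the 55 members, 54 passed the filter on low counts. The exception was Eif4e1b, an eIF4E relative known from oocytes, with 1 count in a single library labelled knockdown and 0 in the other 5, which allows at most the floor given above in those. None of the 54 passed an adjusted p under 0.05 by edgeR, nor did any of the 13884 genes tested (0%). At an unadjusted p under 0.05 there were 7 members (13% of 54) against 15.2% of all genes tested, with higher values for Eif5, Eif1a, Eif2s1 and Eif3j1 and lower values for Eif4ebp2, Eif1b and Eif2ak1. By DESeq2, 0 of the 51 members with an adjusted p were called, against 1.23% of the 8769 genes with one (108 genes). Every library labelled knockdown lay above every wt library for 9 members (16.7%), against 13.3% of all genes, and below for 5 members (9.26%), against 12.6% of all genes. These shares lie near those of all genes. The median log2 fold change was 0.064 for the members and 0.022 for all genes tested, and it was above 0 for 30 of the 54 members. On deposited FPKM, which carry no TMM scaling, it was above 0 for 43 members (limma on log2(FPKM + 1)), where the median of all genes was 0.0916. The members named with full statistics below are the 5 with the smallest p in each direction. Eif5b, Eif3a, Eif2s2, Eif3e and Eif4ebp1 were added after their values were seen because their groups did not overlap. With 3 libraries against 3, an exact two-sided permutation test of 1 gene cannot go below p = 0.1.

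**Figure D1:**
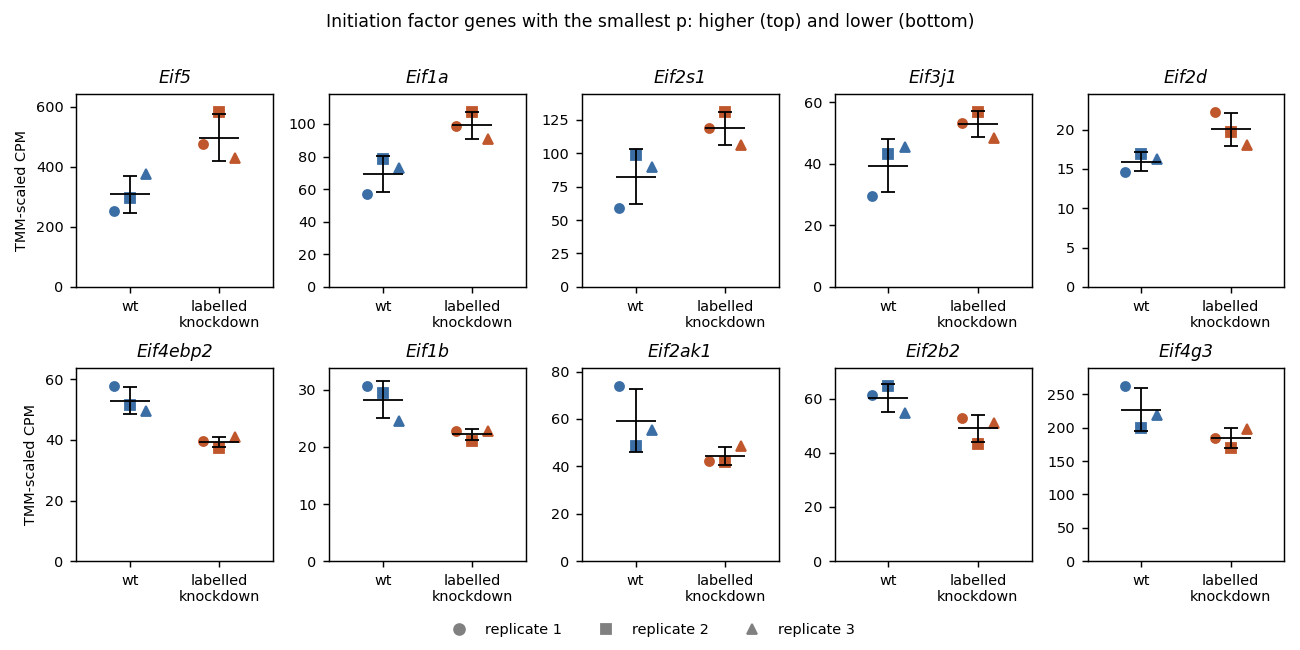
TMM-scaled CPM (linear axis from 0) in each library for the 5 members with the smallest p in each direction, with higher values in the libraries labelled knockdown in the top row and lower values in the bottom row. Marker shape gives the replicate, and bars show the mean and SD of 3 libraries. The groups do not overlap in 9 of the 10 panels, and they overlap for Eif2ak1.

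Among the factors of scanning and start codon choice, Eif5, the activator of GTP hydrolysis by eIF2, had the largest log2 fold change of all members tested. The gene lies at chr12:111538016-111546752 on the plus strand (GENCODE M21, GRCm38), and 1 annotated small RNA gene overlaps it. It read 251, 297 and 376 CPM in wt replicates 1 to 3 and 478, 584 and 431 CPM in the libraries labelled knockdown. The groups did not overlap, and the means were 308 ± 62.9 and 498 ± 78.7 CPM (SD, n = 3 each). The log2 fold change was 0.69 (SE 0.19, adjusted p = 0.328 by edgeR's quasi-likelihood test) and 0.56 without wt replicate 1. DESeq2 gave an adjusted p of 0.0600, the lowest over all alternatives, which ranged up to 0.701. Eif1a, 1 of the genes for eIF1A, which holds the scanning subunit open, read 56.7, 78.2 and 72.9 CPM in wt and 98.8, 108 and 90.8 CPM in the libraries labelled knockdown. Its groups did not overlap, with a log2 fold change of 0.52 (SE 0.15, adjusted p = 0.328 by edgeR), or 0.39 without wt replicate 1.

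Eif1b, a close relative of the start codon guard Eif1, had lower values instead. It read 30.7, 29.5 and 24.5 CPM in wt and 22.7, 21.03 and 22.8 CPM in the libraries labelled knockdown, without overlap. The log2 fold change was -0.35 (SE 0.14, adjusted p = 0.328 by edgeR) and -0.29 without wt replicate 1. Eif1 itself read 740.3, 755 and 639 CPM in wt and 706, 674 and 696 CPM in the libraries labelled knockdown, all within the wt range. In deposited FPKM (fragments scaled by gene length and by depth), Eif1b made up 5.17% ± 0.198 of the sum of Eif1b and Eif1 in wt and 4.22% ± 0.0959 in the libraries labelled knockdown (SD, n = 3 each), without overlap. The other members of this role, Eif1ax and Eif1ad, had overlapping groups and log2 fold changes of 0.27 and 0.23.

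The 4 genes for eIF2 subunits had log2 fold changes from 0.0054 to 0.52 with a median of 0.18, and the lowest, of Eif2s3y, turned negative with RLE scaling and by DESeq2. Eif2s1, which encodes the alpha subunit whose phosphorylation stalls initiation, read 59.2, 98.6 and 89.9 CPM in wt and 119, 131 and 106 CPM in the libraries labelled knockdown. The groups did not overlap, and wt replicate 1 was the lowest library. The log2 fold change was 0.52 (SE 0.20, adjusted p = 0.328 by edgeR), and 0.33 without wt replicate 1. Eif2s2, the beta subunit, read 82.4, 109.9 and 108 CPM in wt and 119, 119 and 117 CPM in the libraries labelled knockdown. Its groups did not overlap, but the log2 fold change of 0.24 (SE 0.14, adjusted p = 0.366 by edgeR) came to 0.12 without wt replicate 1.

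The gamma subunit is encoded on both sex chromosomes. The X-linked Eif2s3x read 54.8, 63.9 and 62.9 CPM in wt and 68.0, 62.4 and 67.7 CPM in the libraries labelled knockdown, with overlap. The Y-linked Eif2s3y read 57.1, 60.1 and 80.8 CPM in wt and 63.8, 52.8 and 82.3 CPM in the libraries labelled knockdown, also with overlap. Every library thus held Eif2s3y transcripts, while Xist, expressed from the inactive X of females, had 0 to 2 counts in each, so no library showed the pattern of female cells although mice of both sexes were used for the tumors. In FPKM, Eif2s1 was 60.3% ± 4.52 of the sum of Eif2s1 and Eif2s3x in wt and 67.0% ± 3.24 in the libraries labelled knockdown (SD, n = 3 each), without overlap. The groups nearly met, at 63.7% in wt replicate 2 and 64.1% in knockdown replicate 3.

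The 5 genes of eIF2B, the exchange factor that reloads eIF2, had log2 fold changes from -0.30 to 0.30 with a median of -0.065. Eif2b2, its beta subunit, read 61.3, 64.7 and 54.6 CPM in wt and 52.7, 43.3 and 51.1 CPM in the libraries labelled knockdown. It was the single eIF2B gene whose groups did not overlap, with a log2 fold change of -0.30 (SE 0.13, adjusted p = 0.329 by edgeR) and -0.29 without wt replicate 1.

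All 4 kinases that phosphorylate eIF2 had overlapping groups, with log2 fold changes from -0.42 to 0.41. Eif2ak1 (HRI, the heme-regulated kinase) read 74.0, 48.7 and 55.4 CPM in wt and 42.2, 41.9 and 48.7 CPM in the libraries labelled knockdown. The groups met at 48.7 CPM and were separate with RLE scaling. Its highest library was wt replicate 1, and the log2 fold change of -0.42 (SE 0.17, adjusted p = 0.328 by edgeR) came to -0.24 without it. The gene overlaps Aimp2 and Ankrd61 on the other strand. Eif2ak2 (PKR, activated by double-stranded RNA and induced by interferon) read 20.0, 33.9 and 54.6 CPM in wt, a wider range than the 43.6, 38.0 and 41.5 CPM in the libraries labelled knockdown. Eif2ak3 (PERK, the sensor of the endoplasmic reticulum) read 33.0, 21.6 and 28.6 CPM in wt and 28.9, 57.6 and 24.1 CPM in the libraries labelled knockdown, where replicate 2 alone was high. Eif2ak4 (GCN2, the amino acid sensor) read 25.1, 18.6 and 21.9 CPM in wt and 20.6, 21.3 and 20.98 CPM in the libraries labelled knockdown.

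Both genes for other tRNA-delivering factors had positive values. Eif2d, which can deliver tRNA to the ribosome without eIF2, read 14.6, 16.9 and 16.3 CPM in wt and 22.3, 19.7 and 18.1 CPM in the libraries labelled knockdown, without overlap. Its log2 fold change was 0.33 (SE 0.15, adjusted p = 0.331 by edgeR), and 0.27 without wt replicate 1. Eif2a had overlapping groups and a log2 fold change of 0.24.

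**Figure D2:**
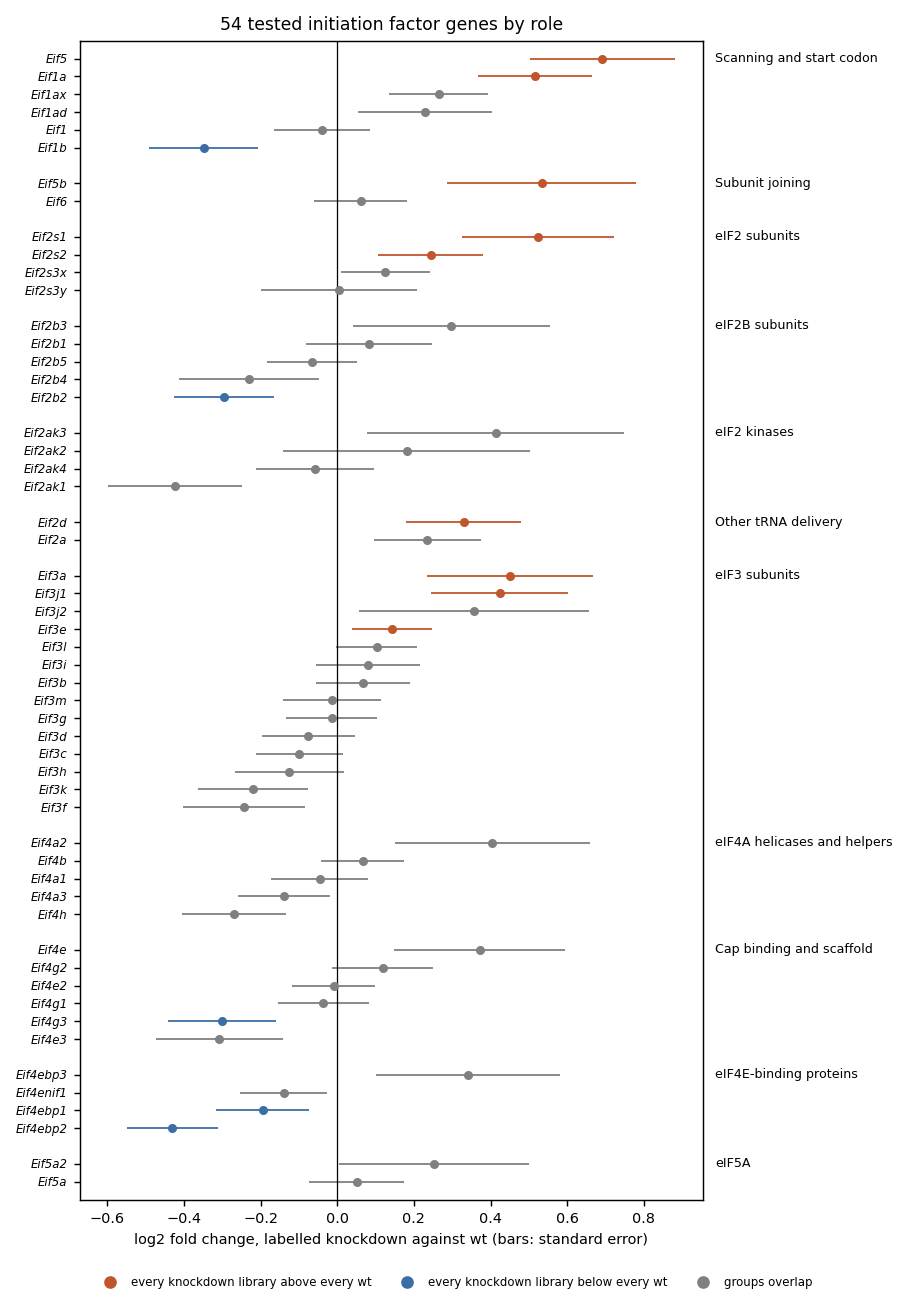
Log2 fold change (horizontal axis, libraries labelled knockdown against wt) with its standard error for the 54 tested members, grouped by role. Orange points mark the 9 members whose libraries labelled knockdown all lay above wt, blue points the 5 that all lay below, and grey points the rest. No member passed the adjusted test.

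The 14 genes of eIF3, the large scaffold of the initiation complex, were divided, with 7 log2 fold changes above 0 and 7 below, from -0.24 for Eif3f to 0.45 for Eif3a. Eif3a, the largest core subunit, read 184, 252 and 341 CPM in wt and 346, 373 and 343 CPM in the libraries labelled knockdown. The groups were separated by little, since wt replicate 3 lay next to the lowest library labelled knockdown. The log2 fold change was 0.45 (SE 0.22, adjusted p = 0.336 by edgeR) and 0.25 without wt replicate 1. Eif3j1, a loosely bound subunit that helps eIF3 join the ribosome, read 29.7, 43.2 and 45.4 CPM in wt and 53.3, 57.0 and 48.5 CPM in the libraries labelled knockdown, without overlap. Its log2 fold change was 0.42 (SE 0.18, adjusted p = 0.328 by edgeR) and 0.25 without wt replicate 1. Eif3e was tightly measured, at 216, 203 and 202 CPM in wt and 234, 226 and 225 CPM in the libraries labelled knockdown. The groups did not overlap although the log2 fold change was 0.14 (SE 0.10, adjusted p = 0.447 by edgeR), and 0.17 without wt replicate 1. The other 11 eIF3 genes had overlapping groups.

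In the cap-binding complex, Eif4e read 63.0, 122 and 99.9 CPM in wt and 126, 124 and 118 CPM in the libraries labelled knockdown. wt replicate 1 was its lowest library, and wt replicate 2 lay within the range of the libraries labelled knockdown. The scaffold Eif4g1 read 344, 386 and 325 CPM in wt and 347, 351 and 330.3 CPM in the libraries labelled knockdown, inside the wt range. Eif4g3, the related scaffold, read 263, 199 and 219 CPM in wt and 185, 169 and 198 CPM in the libraries labelled knockdown. Its groups were separated by less than 1 CPM, with a log2 fold change of -0.30 (SE 0.14, adjusted p = 0.334 by edgeR) and -0.19 without wt replicate 1. The other 3 tested genes of this role had overlapping groups and log2 fold changes from -0.31 for Eif4e3 to 0.12 for Eif4g2.

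None of the 5 genes for the helicase eIF4A and its helpers had groups without overlap, and their log2 fold changes ran from -0.27 for Eif4h to 0.40 for Eif4a2. Eif4a1, the main helicase gene, read 811, 806 and 699.8 CPM in wt and 757, 712 and 776 CPM in the libraries labelled knockdown. Its relative Eif4a2 read 258, 170.2 and 365 CPM in wt and 326, 366 and 359 CPM in the libraries labelled knockdown, so the wt libraries covered the wider range. Eif4a2 overlaps 6 annotated small RNA genes, and reads of these could have been counted to it. In FPKM it made up 12.4% ± 4.90 of the sum of Eif4a2 and Eif4a1 in wt and 16.2% ± 1.21 in the libraries labelled knockdown (SD, n = 3 each), with overlap.

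Among the 4 genes for proteins that bind eIF4E, Eif4ebp2 had the smallest p of the members with lower values. It encodes a repressor that competes with eIF4G for eIF4E until mTORC1 phosphorylates it, and lies at chr10:61428491-61452661 on the minus strand. It read 57.8, 51.6 and 49.5 CPM in wt and 39.7, 37.4 and 40.8 CPM in the libraries labelled knockdown, without overlap. The log2 fold change was -0.43 (SE 0.12, adjusted p = 0.328 by edgeR) and -0.37 without wt replicate 1. DESeq2 gave an adjusted p of 0.0642, within a range over the alternatives from that value to 0.701. Its paralog Eif4ebp1 read 94.4, 101 and 87.6 CPM in wt and 86.6, 73.6 and 87.0 CPM in the libraries labelled knockdown. These groups were separated by less than 1 CPM, with a log2 fold change of -0.19 (SE 0.12, adjusted p = 0.394 by edgeR), and -0.20 without wt replicate 1. In FPKM, Eif4ebp2 made up 23.6% ± 1.63 of the sum of both in wt and 20.8% ± 0.891 in the libraries labelled knockdown (SD, n = 3 each), without overlap. The groups nearly met, at 21.91% in wt replicate 2 and 21.82% in knockdown replicate 2. Shares computed in the same way overlapped for Eif1a with Eif1ax, Eif2s3y with Eif2s3x and Eif3j2 with Eif3j1. They also overlapped for Eif5a2 with Eif5a and Eif4g3 with Eif4g1, and no such share was computed over all genes. Eif4ebp3, low at 4.51 to 7.49 CPM, and the transporter gene Eif4enif1 had overlapping groups and log2 fold changes of 0.34 and -0.14.

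For subunit joining, Eif5b read 36.8, 64.3 and 76.9 CPM in wt and 87.8, 86.8 and 83.3 CPM in the libraries labelled knockdown. The wt libraries were spread widely and the others closely, without overlap. The log2 fold change of 0.53 (SE 0.25, adjusted p = 0.331 by edgeR) came to 0.28 without wt replicate 1. Eif6, which keeps the large subunit from joining too early, read 97.5, 100.3 and 80.8 CPM in wt and 99.3, 97.6 and 93.8 CPM in the libraries labelled knockdown. Eif5a, whose hypusine-modified product helps the ribosome through difficult peptide bonds, read 647, 644 and 557 CPM in wt and 653, 617 and 644 CPM in the libraries labelled knockdown. Both had overlapping groups, as did Eif5a2, the rarer eIF5A gene, at 4.12 to 6.25 CPM.

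Compared per length, the members covered a range from 553 FPKM for Eif1, as the median of 6 libraries, down to 0.846 FPKM for Eif5a2, with Eif4e1b at 0. The highest after Eif1 were Eif4a1 at 401, Eif5a at 293, Eif3f at 219.9 and Eif3h at 214 FPKM. On this scale the lowest Eif1 value, 498, lay above the 366 to 434 FPKM of Eif4a1, and these lay above Eif5a in every library. The ranges of Eif3f (206 to 282) and Eif3h (193 to 241) overlapped, but Eif3f was the higher in each of the 6 libraries. The margin was small in knockdown replicate 2, at 219.4 against 217.2 FPKM. Eif4e, at 11.1 FPKM, was lower than its partner Eif4g1 at 61.6 and than its repressor Eif4ebp1 at 88.7 FPKM. The gene length behind FPKM was the authors', and it was more than 1.5 times the merged exon length of GENCODE for 5 members, while the GENCODE length was more than 1.5 times the authors' for 22. With the GENCODE length Eif1 stayed at rank 1, but Eif5a (258) passed Eif4a1 (174), Eif3h (169) passed Eif3f (115), and Eif3e moved from rank 6 to 23. Eif4e then stood at 19.0 against 46.6 for Eif4g1 and 39.6 for Eif4ebp1, so it stayed the lowest of the 3 by a smaller gap.

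**Figure D3:**
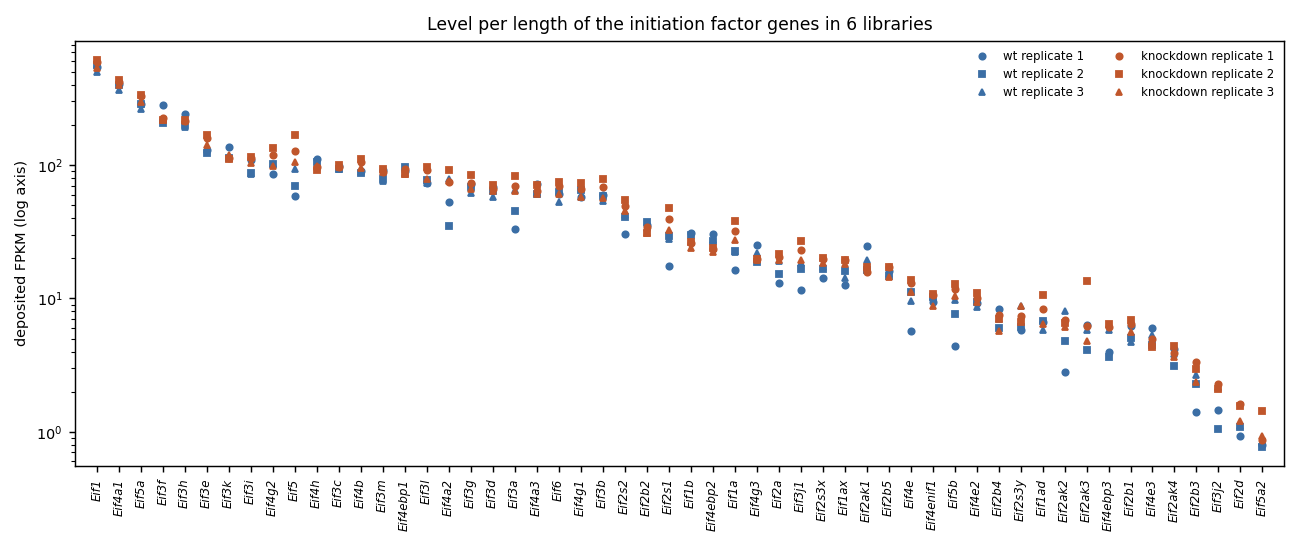
Deposited FPKM (log axis) of the members in the 6 libraries, ordered by their median, with wt in blue and the libraries labelled knockdown in orange. Eif4e1b, with a median of 0, is not drawn. The levels run from 553 FPKM for Eif1 to 0.846 FPKM for Eif5a2, and the lowest library is wt replicate 1 for Eif5, Eif3a and Eif4e and wt replicate 2 for Eif4a2.

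Summed over the members, TMM-scaled levels were 8668, 8664 and 8423 CPM in wt and 9028, 8930 and 8939 CPM in the libraries labelled knockdown. These sums did not overlap, but a sum is weighted by its most abundant genes. Eif5 alone read 251, 297 and 376 CPM in wt and 478, 584 and 431 CPM in the libraries labelled knockdown. The median log2 CPM of the members did overlap, at 6.29, 6.48 and 6.34 in wt and 6.49, 6.47 and 6.51 in the libraries labelled knockdown. wt replicate 1 was the lowest library for 15 members (27.8%), against 33.5% of all genes, and the highest for 20 members (37%), against 33% of all genes. wt replicate 3 was the lowest for 16 members, or 29.6%, where it was the lowest for 9.41% of all genes. The SD of log2 CPM among replicates had a median over the members of 0.178 in wt and 0.0886 in the libraries labelled knockdown, against 0.288 and 0.207 for all genes. It was larger in wt for 44 of the 54 members, where it was so for 68.3% of all genes. Without wt replicate 1 the wt median was 0.135 for the members and 0.169 for all genes. The latter lay below the 0.207 of the libraries labelled knockdown, and this wt SD rests on fewer libraries.

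**Figure D4:**
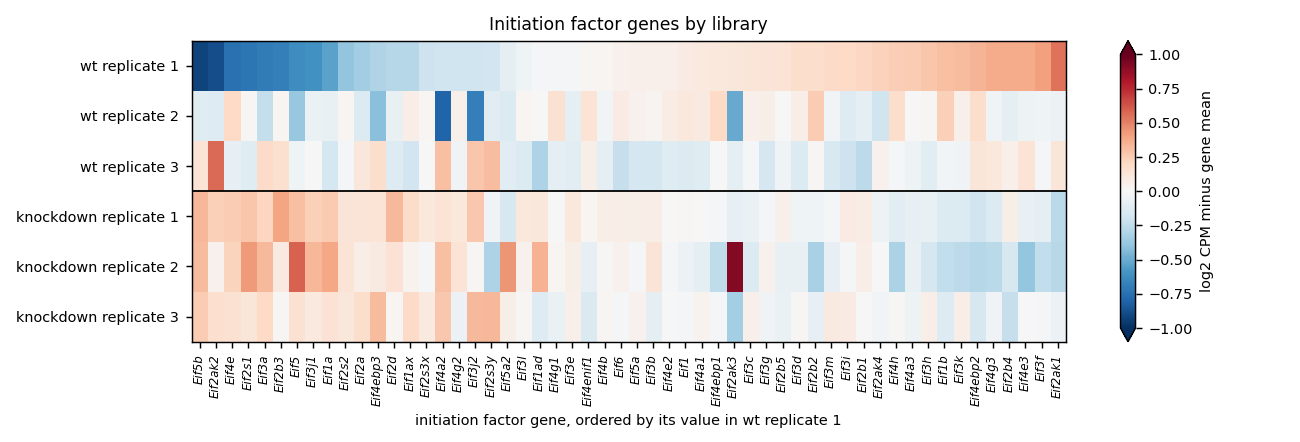
Log2 CPM of each tested member minus its mean over the 6 libraries (color), with libraries in rows and members in columns ordered by their value in wt replicate 1. wt replicate 1 is lowest, at -0.92 for Eif5b, on the left, where the libraries labelled knockdown are mostly above the mean. That contrast follows in part from the ordering, since values are centered per member and sorted by wt replicate 1. Knockdown replicate 2 stands out for Eif2ak3, at 0.92.

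Genes beyond the family that act on initiation, on its control or on later steps of translation were followed as lists. The lists also hold factors of mitochondrial translation, among them Mtif2 and Mtrf1l below. None of the listed genes was called by edgeR. The gene with the smallest p in each direction is named for each list, so these genes are its extremes. Other genes are named because their groups did not overlap, after their values were seen. Over all genes tested, 13.3% were higher and 12.6% lower in every library labelled knockdown, and no list was tested against these shares. Of 18 genes of the ATF4 and CHOP response, which eIF2 phosphorylation sets off, 3 were higher and 3 lower in every library labelled knockdown, near the 13.3% and 12.6% of all genes, with a median log2 fold change of 0.18. Higher throughout were Atf4, Asns and Psat1, at 0.47, 0.80 and 0.30, and the lower were Ddit4, Cebpb and Mthfd2, at -0.67, -0.82 and -0.085. Atf4, the transcription factor that gives the response its name, read 361, 317 and 305 CPM in wt and 464, 515 and 386 CPM in the libraries labelled knockdown, with a log2 fold change of 0.47 (SE 0.15, adjusted p = 0.328 by edgeR). Ddit4, an inhibitor of mTORC1, read 228, 169 and 244 CPM in wt and 129.6, 112 and 162 CPM in the libraries labelled knockdown, at -0.67 (SE 0.19, adjusted p = 0.328 by edgeR). Of the 5 eIF2 phosphatase genes, 0 were higher and 1, Ppp1ca at -0.31, was lower in every library labelled knockdown, while Ppp1cb was at 0.14 and Ppp1r15b at -0.29.

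Of 12 genes of mTORC1 and MNK signalling, which act on the eIF4E-binding proteins and on eIF4E, 0 were higher and 3 lower in every library labelled knockdown (13.3% and 12.6% of all genes), with a median log2 fold change of -0.13. Lower throughout were Mknk1, Rps6kb2 at -0.40 and Tsc2 at -0.31. Mknk1, a kinase of eIF4E, read 101, 62.0 and 64.6 CPM in wt and 47.5, 38.0 and 55.4 CPM in the libraries labelled knockdown, at -0.69 (SE 0.23, adjusted p = 0.328 by edgeR), and Rps6kb1 was at 0.25. Of 14 further initiation factors and helicases, 2 were higher, Pdcd4 and Mtif2 (at 0.48), and 0 lower, with a median log2 fold change of 0.16. Pdcd4, an inhibitor of eIF4A, read 16.2, 20.2 and 38.9 CPM in wt and 41.7, 73.0 and 44.5 CPM in the libraries labelled knockdown, at 1.08 (SE 0.36, adjusted p = 0.328 by edgeR), and Mcts1 was at -0.16.

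For the later steps of translation, 3 of 13 elongation genes were higher and 1 lower in every library labelled knockdown (13.3% and 12.6% of all genes), and the median log2 fold change was 0.20. The higher genes were Eef1b2 at 0.22, Eef1d at 0.28 and Eef1g at 0.29, and the lower was Eef2kmt at -0.21. Of 8 termination and recycling genes, 5 were higher, namely Abce1, Mtrf1l at 0.79, Gspt1 at 0.30, Pelo at 0.17 and Hbs1l at 0.16, and 0 lower, with a median of 0.16. Abce1, which splits ribosomes after termination, read 53.1, 85.5 and 97.2 CPM in wt and 132, 125 and 106 CPM in the libraries labelled knockdown, at 0.62 (SE 0.22, adjusted p = 0.328 by edgeR), and Gspt2 was at -0.16. Both enzymes that make hypusine on eIF5A were higher in every library labelled knockdown, with Dhps at 0.27 and Dohh at 0.24.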

How the data were processed

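RNA was sequenced in 3 libraries labelled wt and 3 labelled knockdown, which the labels number as separate biosamples. The study gives fewer individual mice than libraries per group, so libraries may share animals and the spread between them may be partly technical. The deposited table gives raw read counts per gene and FPKM made by the authors from them, with no pooling of libraries. The submitters' processing notes name mm10. The aligner, counter and use of strand are not given in the sources used here, so reads of the 30 members that overlap another gene, and of near-identical paralogs (Eif1a and Eif1ax, Eif3j1 and Eif3j2, Eif2s3x and Eif2s3y, Eif4a1 and Eif4a2), may be shared. Members and gene lists were chosen with earlier results of these data known.

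Counts were filtered with filterByExpr, scaled by TMM and tested by the quasi-likelihood test of edgeR 4.0.16 in R 4.3.3, with Benjamini-Hochberg adjustment over 13884 genes at 0.05. DESeq2 1.42.0 and limma 3.58.1 on log2(FPKM + 1) or log2(FPKM + 0.1) were alternatives, with RLE scaling, no filter, a replicate block and each library left out. Scripts were tested on simulated data, where edgeR recovered 97% of 200 genes changed by 2 on the log2 scale, in a simulated comparison of knockdown against wt over 13612 genes. In the same simulation edgeR also called 16 unchanged genes, and DESeq2, which recovered 98%, called 52. Genes named with full statistics were the 5 members with the smallest p in each direction and any called by edgeR or DESeq2, with fixed role genes given by level, and exceptions are stated. Floors cover counting error only. Coordinates and overlaps come from GENCODE M21 on GRCm38, and start regions from RefSeq GRCm38.p6.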

Additional observations from a re-analysis of the deposited data

How the results depend on the processing

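No initiation factor gene was called by any test or setting tried. The 15 members with full statistics kept their direction in 14 settings each. They were chosen on these same values, for a small p or for groups without overlap, so a reversal was unlikely from the start. Fold changes of Npm1 and of the listed genes beyond the family were not followed over these settings. Over all genes, edgeR called 0 in every setting, while DESeq2 called 108, 75 without wt replicate 1 and 36 on every gene of the table, the last added after seeing the data. The median log2 fold change of the members was 0.20 and 0.22 by limma on FPKM with pseudocounts of 1 and 0.1, where all genes had 0.0916 and 0.160. It ranged from -0.025 to 0.067 with each library left out, and turned negative without wt replicate 3. Members higher in every library labelled knockdown numbered 17 in FPKM (31.5% of members, 18.6% of all genes) and 10 to 14 with a library left out (18.5 to 25.9% of members, 15 to 26.9% of all genes). Members lower in every such library numbered 2 in FPKM (3.7% of members, 6.88% of all genes) and 5 to 12 with a library left out (9.26 to 22.2% of members, 14.6 to 22.9% of all genes). FPKM carries no TMM scaling, and fewer libraries make groups easier to separate. Among the settings with a library left out, both counts were highest, at 14 and 12, without wt replicate 3 and without knockdown replicate 3. The smallest adjusted p of any member, 0.0600 by DESeq2 for Eif5, was 0.142 on every gene of the table and 0.143 without wt replicate 1. Equal replicate numbers did not pair the libraries (correlations of deviations -0.241, 0.0605 and -0.337), and a replicate block in edgeR called 0 genes, with a member median of 0.067 and 5 members at an unadjusted p under 0.05. The order of levels correlated at 0.998 with that from TMM-scaled counts and 0.929 with the GENCODE exon length. The former used the same counts and gene lengths and differed only in the scaling between libraries, which left little room for a lower value. Recovery of changes smaller than 2 on the log2 scale was not tested.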
